A study of Mus musculus with 12 samples.

Results

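The enzymes of cytochrome P450 family 4 were followed through 10 genes of the mouse liver, out of 16821 genes listed for each mouse. They were Cyp4a10, Cyp4a14, Cyp4a31, Cyp4a32, Cyp4a12a and Cyp4a12b of the Cyp4a branch, Cyp4f13, Cyp4f14 and Cyp4f15 of the Cyp4f branch, and Cyp4v3, which belongs to a separate branch of the same family. Cyp4a10 and Cyp4a14 were selected on their higher values after training in these same livers, and the other 8 were added as their relatives. The difference of Cyp4a10 and Cyp4a14 between the groups is therefore given as a description with no test.

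RNA was sequenced from the livers of male C57BL/6J mice, 6 that stayed sedentary (Con) and 6 that were trained (Exe), with a library for each mouse. The mice were bought at 8 weeks of age and rested for 1 week before the training, in which Exe mice ran on a treadmill for 6 weeks, on 5 days a week and for 60 min a day, while Con mice were kept in the same room without running. The treadmill began at 12 m per min and was raised by 1 m per min every 2 weeks. Livers were cleared of blood with saline and frozen within 24 h of the last run. Values were FPKM, fragments counted per kilobase of transcript and scaled to the mapped fragments of the library, so levels of different genes can be set side by side. They summed to between 735200 and 820107 per mouse. The number of reads behind each value is unknown, and the spread between mice is the error given. The hepatocyte markers were abundant in every mouse, at a sum of at least 73727 FPKM, and the kidney tubule markers summed to between 0.070 and 0.22 FPKM. All members are compared in whole liver RNA, where fewer cells of a type and less RNA per cell cannot be told apart.

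Cyp4 enzymes sit in the membrane of the endoplasmic reticulum and add a hydroxyl group to the far (omega) end of a fatty acid, with electrons passed on from the reductase Por. Alcohol and aldehyde dehydrogenases then turn the product into a dicarboxylic acid, which peroxisomes shorten. The nuclear receptor PPARA, which binds fatty acids, is the classical activator of Cyp4a10 and Cyp4a14 in rodent liver, and Cyp4a12a is known as a male-biased enzyme that makes the signalling lipid 20-HETE from arachidonic acid.

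The genes are close relatives, and their sequences set how well their reads can be told apart. The 6 Cyp4a genes lie on chromosome 4, with starts in the order Cyp4a12a, Cyp4a12b, Cyp4a14, Cyp4a10, Cyp4a31 and Cyp4a32 in the RefSeq table of GRCm38.p6. The 3 Cyp4f genes lie on chromosome 17 and Cyp4v3 lies on chromosome 8. Sequences were read from the GENCODE M21 transcripts of build GRCm38, taking the longest coding sequence of each gene, and are printed from 5′ to 3′ on the coding strand. The site that holds the haem iron is what makes all of them P450 enzymes, and its 30 coding bases are shown with the codon of the iron-binding cysteine in capitals. The 10 genes held 7 different versions of it.
Cyp4a10, Cyp4a31 and Cyp4a32: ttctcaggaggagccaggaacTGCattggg
Cyp4a14: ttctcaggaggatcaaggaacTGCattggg
Cyp4a12a and Cyp4a12b: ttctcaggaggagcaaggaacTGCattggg
Cyp4f13: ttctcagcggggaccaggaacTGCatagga
Cyp4f14: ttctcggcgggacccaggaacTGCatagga
Cyp4f15: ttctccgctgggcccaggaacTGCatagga
Cyp4v3: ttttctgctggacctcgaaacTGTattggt

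The first 120 coding bases show how near Cyp4a31 and Cyp4a32 are to Cyp4a10, and how far Cyp4a14 is from it. Bases that differ from Cyp4a10 at the same position are in capitals.
Cyp4a10: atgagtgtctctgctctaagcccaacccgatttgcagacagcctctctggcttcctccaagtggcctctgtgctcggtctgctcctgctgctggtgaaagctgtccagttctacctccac
Cyp4a32: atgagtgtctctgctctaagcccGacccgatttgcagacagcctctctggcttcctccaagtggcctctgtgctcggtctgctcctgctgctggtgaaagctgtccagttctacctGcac
Cyp4a31: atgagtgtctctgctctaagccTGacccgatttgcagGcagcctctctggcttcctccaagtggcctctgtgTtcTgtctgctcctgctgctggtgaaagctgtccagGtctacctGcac
Cyp4a14: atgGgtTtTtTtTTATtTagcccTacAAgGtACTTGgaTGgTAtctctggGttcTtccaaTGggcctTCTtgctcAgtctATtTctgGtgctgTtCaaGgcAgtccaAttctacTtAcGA

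Over these bases Cyp4a32 differed from Cyp4a10 at 2 positions, Cyp4a31 at 7 and Cyp4a14 at 43. Over the whole coding sequence, Cyp4a10 shared 97.2% of aligned bases with Cyp4a32, 96.6% with Cyp4a31 and 76.1% with Cyp4a14. Cyp4a12a and Cyp4a12b shared 98.5%, with 23 different bases of 1527, and 0 in the first 120. Cyp4f14 and Cyp4f15 shared 82.2%, and Cyp4v3 shared between 54.9% and 58.4% with the other members. A stretch of 150 bases, the length of a read, was found unchanged in another Cyp4 gene for 25.6% of the positions along Cyp4a12a and 25.9% along Cyp4a12b. That share was 7.97% for Cyp4a32, 4.34% for Cyp4a10, 4.19% for Cyp4a31 and 0% for Cyp4a14, the 3 Cyp4f genes and Cyp4v3. The Cyp4a32 transcript in this set holds its coding bases only, so sharing outside them was not measured. How the authors' counting divided reads between near copies is not given in the sources used here, and the levels of Cyp4a12a, Cyp4a12b, Cyp4a10, Cyp4a31 and Cyp4a32 carry that uncertainty.

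Cyp4a10 and Cyp4a14, the fatty acid omega-hydroxylases that respond most to PPARA in rodent liver, were the pair selected for their rise. Cyp4a10 ran from 36.4 FPKM in Con 1 to 116.94 FPKM in Con 5, with a Con median of 81.15, and from 106.35 FPKM in Exe 5 to 344.89 FPKM in Exe 2, with an Exe median of 152.19. The mean was 79.04 ± 26.1 FPKM in Con and 183.4 ± 86.1 FPKM in Exe livers (SD, n = 6 each), a ratio of 2.32. Every Exe mouse except Exe 5 was above every Con mouse. Cyp4a14 ran from 3.54 to 38.81 FPKM over the Con mice (median 15.32) and from 29.31 to 289.52 FPKM over the Exe mice (median 56.47). Its mean was 17.7 ± 12.1 FPKM in Con and 91.3 ± 98.5 FPKM in Exe livers, a ratio of 5.16, and again Exe 5 alone fell within the Con range. At least 5 of 6 Exe mice stood above every Con mouse for 1.34% of the 10241 genes tested, and for 2 of the 10 members, the pair selected on this contrast. The mouse Exe 2 held the highest value of both genes, and without it the ratios were 1.91 for Cyp4a10 and 2.92 for Cyp4a14. The other end was Con 1, which held the lowest value of both.

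Markers of several liver cell types differed in their means between the groups as well, but 0 of them passed at adjusted p. The summed levels of each type named here overlapped between the groups. All 9 hepatocyte markers tested had higher means in Exe livers, where 57.5% of all genes tested did, and 3 of the 9 had an unadjusted p under 0.05, against 4.27% of all genes higher at that p. The highest was Alb, the serum albumin gene, at 0.34 on the log2 scale (SE 0.12, adjusted p = 0.793 in limma). Their sum ran from 73727 to 92220 FPKM in Con mice (median 80300) and from 83933 to 102884 FPKM in Exe mice (median 93311). The 4 globin genes had log2 differences of 0.66 to 0.83 (adjusted p of 0.799 to 0.873 in limma). The other red blood cell marker tested, Alas2, was lower in Exe livers, at -0.18 (SE 0.10, adjusted p = 0.848 in limma). Summed, the red blood cell markers had a median of 415 FPKM in Con and 708 FPKM in Exe mice. The other way, all 10 Kupffer cell markers and 10 of 11 stellate cell markers had lower means in Exe livers, where 42.5% of all genes tested did. The part of these marker differences in the Cyp4 differences was not tested.

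**Figure D1:**
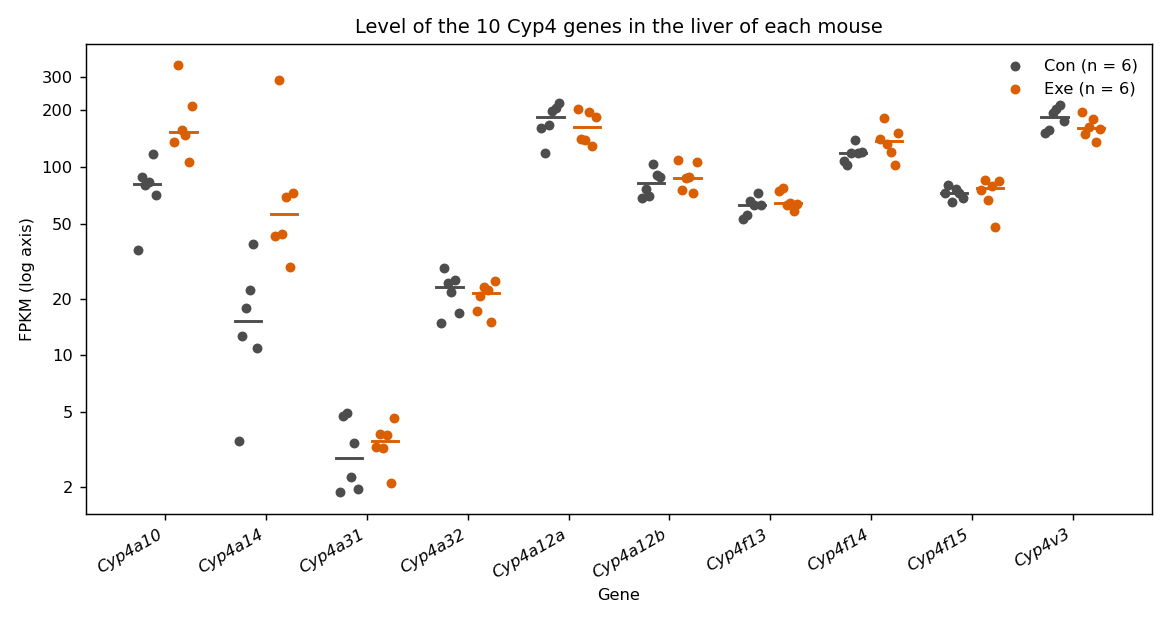
FPKM (log axis) of the 10 Cyp4 genes in each mouse, with 6 Con mice in grey and 6 Exe mice in orange and a line at each group's median. Cyp4a10 and Cyp4a14, the genes selected on this difference, had 5 of 6 Exe mice above every Con mouse, and Exe 5 within the Con range. The ranges of the 2 groups overlapped for all 10 genes.

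None of the other 8 members passed the test between the groups. With limma and Benjamini-Hochberg adjustment over 10241 genes, 0 genes (0%) had an adjusted p under 0.05, and 636 genes (6.21%) had an unadjusted p under 0.05, of which 0 were among the 8. Of the 8, 4 had a higher and 4 a lower mean log2(FPKM + 1) in the Exe group, and their adjusted p-values lay between 0.849 and 0.994. Their groups overlapped in every case, where 0.254% of all genes tested had groups that did not overlap.

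Cyp4a31 and Cyp4a32 are the near copies of Cyp4a10 and stood at far lower levels. Cyp4a32 ran from 14.89 to 28.93 FPKM (median 23.04) over the Con mice and from 14.97 to 24.95 FPKM (median 21.41) over the Exe mice. The log2 difference of Exe minus Con was -0.08 (SE 0.16, 95% interval -0.42 to 0.26, adjusted p = 0.964), so a gene that shares 97.2% of its coding bases with Cyp4a10 had groups that covered nearly the same range. Cyp4a31 ran from 1.88 to 4.95 FPKM (median 2.85) over the Con mice and from 2.11 to 4.64 FPKM (median 3.54) over the Exe mice, with a log2 difference of 0.14 (SE 0.20, 95% interval -0.29 to 0.56, adjusted p = 0.955). Neither difference was larger than the spread between mice. The sign for Cyp4a32 turned without Con 2 or without Exe 5, to 0.0055 and 0.0040.

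Cyp4a12a, the male-biased gene, and its near copy Cyp4a12b also did not pass the test. Cyp4a12a ran from 118.27 to 216.85 FPKM (median 182.75) over the Con mice and from 128.33 to 202.42 FPKM (median 161.53) over the Exe mice. Its log2 difference was -0.10 (SE 0.16, 95% interval -0.44 to 0.23, adjusted p = 0.957). Cyp4a12b ran from 68.49 to 103.43 FPKM (median 82.29) over the Con mice and from 72.92 to 108.63 FPKM (median 87.45) over the Exe mice, and its log2 difference was 0.11 (SE 0.12, 95% interval -0.15 to 0.38, adjusted p = 0.933). The 2 log2 differences had opposite signs and both intervals held 0. In every mouse Cyp4a12b stood below Cyp4a12a, at between 0.405 and 0.648 of its level.

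Among the Cyp4f genes, Cyp4f14, which hydroxylates leukotriene B4 and the side chain of vitamin E, had the largest difference of the 8. It ran from 101.65 to 138.05 FPKM (median 117.83) over the Con mice and from 101.81 to 181.15 FPKM (median 136.98) over the Exe mice. Its log2 difference was 0.22 (SE 0.12, 95% interval -0.04 to 0.47, adjusted p = 0.849), with 3 of 6 Exe mice above every Con mouse. It stood at 0.13 without Exe 2 and at 0.30 without Exe 5. Cyp4f13 ran from 52.76 to 73.03 FPKM over the Con mice and from 58.13 to 77.25 FPKM over the Exe mice, with a log2 difference of 0.10 (SE 0.09, adjusted p = 0.929). Cyp4f15 ran from 65.03 to 79.64 FPKM over the Con mice and from 47.85 to 85.42 FPKM over the Exe mice, with a log2 difference of -0.01 (SE 0.12, adjusted p = 0.994). Exe 5 was at 47.85 FPKM of Cyp4f15, below every Con mouse, and without that mouse the difference was 0.10.

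Cyp4v3, the mouse counterpart of human CYP4V2, a fatty acid hydroxylase whose loss causes Bietti crystalline dystrophy of the eye, had the highest mean of the members in Con livers. It ran from 151.08 to 213.33 FPKM (median 183.91) over the Con mice and from 135.06 to 195.37 FPKM (median 161.06) over the Exe mice. The log2 difference was -0.15 (SE 0.10, 95% interval -0.38 to 0.07, adjusted p = 0.900), with 2 of 6 Exe mice below every Con mouse. This was the lowest log2 difference among the 10 genes.

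The order of the levels differed at its upper end between the groups. In Con livers the mean FPKM fell in the order Cyp4v3, Cyp4a12a, Cyp4f14, Cyp4a12b, Cyp4a10, Cyp4f15, Cyp4f13, Cyp4a32, Cyp4a14 and Cyp4a31. In Exe livers it fell in the order Cyp4a10, Cyp4a12a, Cyp4v3, Cyp4f14, Cyp4a14, Cyp4a12b, Cyp4f15, Cyp4f13, Cyp4a32 and Cyp4a31. The Exe order rested in part on Exe 2. Without that mouse the Exe means fell in the order Cyp4a12a (169.5 FPKM), Cyp4v3 (166.3), Cyp4a10 (151.1), Cyp4f14 (129.3), Cyp4a12b (92.6), Cyp4f15 (70.6), Cyp4f13 (64.7), Cyp4a14 (51.7), Cyp4a32 (20.5) and Cyp4a31 (3.42). Cyp4a14 was above Cyp4a12b in 1 of 6 Exe mice. Most neighbours in these orders had overlapping ranges. Over all 6 mice of a group, the neighbours that did not overlap were Cyp4f13 and Cyp4a32 in both groups, and Cyp4a32 and Cyp4a31 in the Exe group. Cyp4a10 was above Cyp4a12a in 0 of 6 Con mice and 3 of 6 Exe mice, and the ratio of the pair ran from 0.228 in a Con mouse to 2.46 in an Exe mouse.

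Summed over the 10 genes, the family stood at 816 ± 109 FPKM in Con and 994 ± 222 FPKM in Exe livers (SD, n = 6 each), a ratio of 1.22. The lowest and highest sums were 669 and 956 FPKM among Con mice, 697 and 1368 FPKM among Exe mice, so the groups overlapped, with 4 of 6 Exe mice above every Con mouse. Nearly all of the difference lay in the selected pair, which was chosen on its rise in this contrast, so this is a description. Cyp4a10 and Cyp4a14 together went from 96.7 to 274.7 FPKM, a difference of 178.0 FPKM. The sum of the other 8 genes was 719.2 ± 80.7 FPKM in Con livers against 719.5 ± 90.6 FPKM in Exe livers, a difference of 0.27 FPKM. That small value joined differences of both signs. These were 25.8 FPKM for the Cyp4f genes, -18.5 for Cyp4v3, -5.9 for Cyp4a12a plus Cyp4a12b and -1.15 for Cyp4a31 plus Cyp4a32. Without Exe 2 the Exe mean was 202.8 FPKM for the selected pair, a difference of 106.0 FPKM from the Con mean, and 919.5 FPKM for the family.

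As a share of the family sum, Cyp4a10 plus Cyp4a14 made up 11.6% ± 3.54 in Con and 25.9% ± 10.5 in Exe livers. The share ran from 5.97% to 16.3% (median 11.8%) in Con mice and from 17.9% to 46.4% (median 22.6%) in Exe mice. All 6 Exe mice were above all Con mice, including Exe 5, whose FPKM of both genes lay within the Con range and whose family sum was the lowest of the Exe group. Exe 2 stood at 46.4%, and without it the Exe mean was 21.9%. The share rests on the genes that were selected, so it is a description.

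The other branches held smaller mean shares in Exe livers. The sum that divides them holds the selected pair, so their shares depend in part on the selection. The FPKM of each branch enters too, and its mean changed by 10.3% for the Cyp4f genes and by -10.2% for Cyp4v3. These shares are a description too. That of Cyp4v3, whose own FPKM overlapped between the groups, went from 22.3% ± 1.03 to 17.0% ± 3.41. Cyp4a12a plus Cyp4a12b went from 31.9% ± 3.49 to 26.4% ± 5.51, and the 3 Cyp4f genes from 31.1% ± 2.48 to 28.2% ± 1.84. Cyp4a31 plus Cyp4a32 held 3.11% ± 0.897 in Con and 2.46% ± 0.461 in Exe livers.

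**Figure D2:**
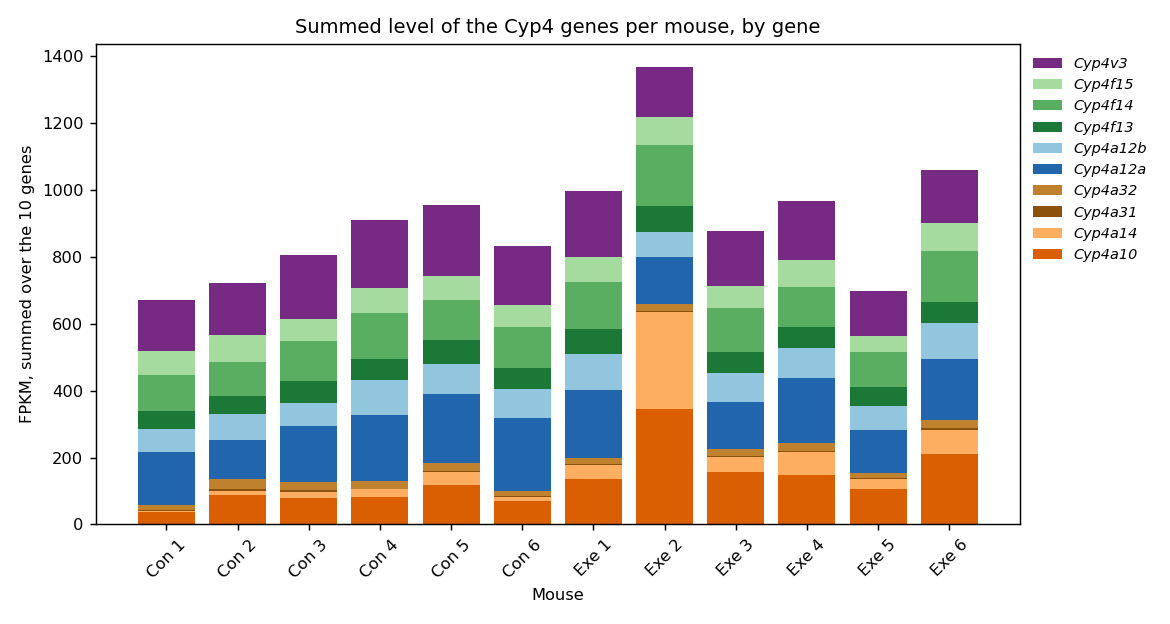
FPKM of the 10 Cyp4 genes stacked for each mouse, with Con 1 to Con 6 on the left and Exe 1 to Exe 6 on the right. The orange parts (Cyp4a10 and Cyp4a14) made up 5.97% to 16.3% of the bar in Con mice and 17.9% to 46.4% in Exe mice, and the tallest bar was Exe 2 at 1368 FPKM.

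The pair of PPARA-responsive genes did not move in a fixed ratio. Cyp4a14 stood at 0.204 ± 0.087 of Cyp4a10 in Con and at 0.422 ± 0.216 in Exe livers (SD, n = 6 each). The ratio was lowest in Con 1, at 0.097, where both genes were lowest, and highest in Exe 2, at 0.839, where both were highest. The next highest was 0.466 in Exe 4. The groups overlapped, with a Con maximum of 0.332 and an Exe minimum of 0.276, and 3 of 6 Exe mice were above every Con mouse. Both genes were selected on this contrast, so the group means of the ratio are a description. Over the 12 mice, after each group's mean was taken off, log2 Cyp4a14 changed by 1.83 for each unit of log2 Cyp4a10. Cyp4a31 stayed between 0.104 and 0.203 of Cyp4a32 in all 12 mice.

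The members also differed in how much they varied between mice that were treated alike. The SD of log2(FPKM + 1) within groups was 1.10 for Cyp4a14, larger than in 99.8% of the genes tested, and 0.57 for Cyp4a10, larger than in 98.4%. It was 0.39 for Cyp4a31 and 0.31 for Cyp4a32, at the 95.7 and 92.04 percentiles, and 0.30 for Cyp4a12a, at the 91.7 percentile. For the Cyp4f genes and Cyp4v3 it lay between 0.16 for Cyp4f13, at the 62.2 percentile, and 0.23 for Cyp4f15, at the 83.5 percentile. The order below the selected pair was not the same in both groups. In Con mice the SD was 0.11 for Cyp4f15, 0.15 for Cyp4f14 and 0.35 for Cyp4a32, and in Exe mice it was 0.31, 0.28 and 0.26. The highest Con mouse had 10.96 times the Cyp4a14 of the lowest, 3.21 times the Cyp4a10 and 1.22 times the Cyp4f15. Among Exe mice these ratios were 9.88, 3.24 and 1.79. Exe 5 was the lowest Exe mouse for all 10 members, and Con 1 was the lowest Con mouse for 7 of them. The share of all genes tested that were lowest in these mice was not computed.

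To ask which members varied together without using the contrast between groups, the deviation of each mouse from its group's mean log2 value was correlated for all 45 pairs of members. Pearson's r was positive in 43 of the 45, with a median of 0.40. With a two-sided permutation test that shuffled mice within groups, 13 pairs had an unadjusted p under 0.05 and 2 passed after adjustment over the 45. The share of positive r, the median r and the share at that p were not computed over all pairs of genes. Whether the members exceed other genes in these counts is therefore not known. The pairs were not independent, as Exe 5 was the lowest Exe mouse for every member. An r of at least 0.7 was found in 5 of the 45 pairs and in 1.94% of all pairs of genes tested, and the pairs of a family share their libraries and, in part, their sequence.

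Cyp4a10 and Cyp4a14 were the closest pair. Their r was 0.953 (permutation p = 0.00012, adjusted p = 0.0054) and rho was 0.888 (adjusted p = 0.0252). The relation was present in Con mice alone (r = 0.948, exact permutation p = 0.0111) and in Exe mice alone (r = 0.957, exact permutation p = 0.00694). Without Con 1 and Exe 2, the mice farthest from the median, r was 0.820 (permutation p = 0.00575, adjusted p = 0.0703), so the adjusted call did not hold without those mice. Among 10240 other genes tested, Cyp4a14 had the highest r with Cyp4a10, and Cyp4a10 the highest with Cyp4a14. No 150-base stretch was found in common between Cyp4a14 and another Cyp4 gene.

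Cyp4a31 and Cyp4a32 were the other pair past the threshold, with r = 0.869 (permutation p = 0.00078, adjusted p = 0.0175) and rho = 0.839 (adjusted p = 0.0839). Their r was 0.879 in Con mice and 0.862 in Exe mice (exact permutation p = 0.0278 in each), and 0.879 without Con 3 and Exe 5 (permutation p = 0.00708). The adjusted p went above 0.05 without Con 2 (0.0677), Exe 5 (0.172) or Exe 6 (0.0556). Cyp4a32 ranked 4 among the genes most like Cyp4a31, and Cyp4a31 ranked 3 for Cyp4a32. These genes share 96.0% of their coding bases, and the part of shared reads in this relation was not tested.

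**Figure D3:**
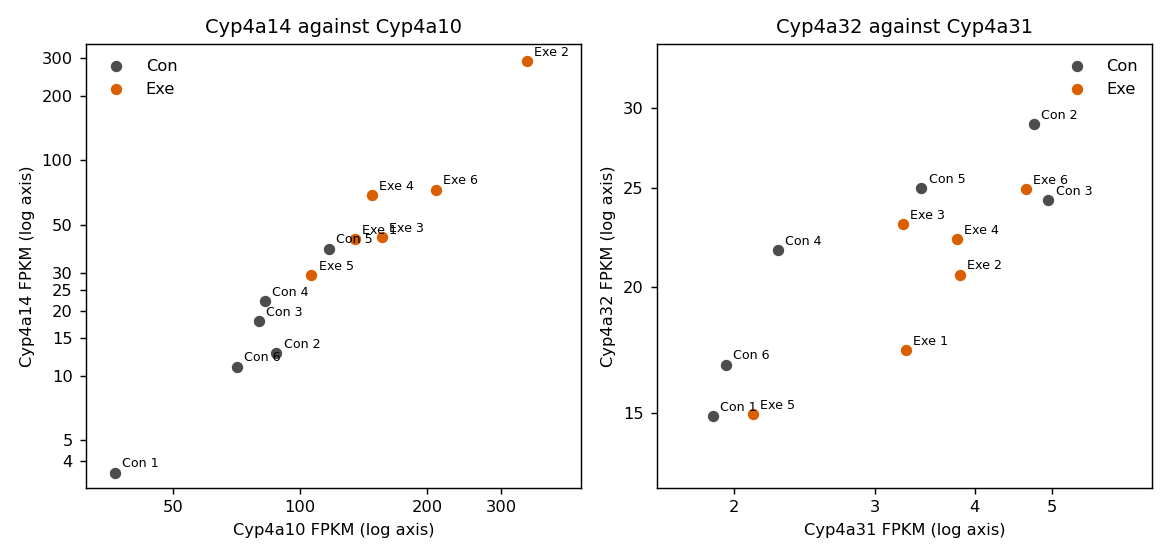
FPKM of Cyp4a14 against Cyp4a10 (left) and of Cyp4a32 against Cyp4a31 (right) in each mouse, on log axes, with Con mice in grey and Exe mice in orange. Con 1 and Exe 2 stand at the lower and the upper end of the left plot, and without them the r of deviations from the group means went from 0.953 to 0.820.

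The male-biased gene followed another pattern. Cyp4a12a was not detectably related to Cyp4a10 (r = 0.04, adjusted p = 0.920 by permutation) or to Cyp4a14 (r = 0.16, adjusted p = 0.704 by permutation). Its highest r among the members were with Cyp4v3 (r = 0.74, adjusted p = 0.0919 by permutation) and with Cyp4a12b (r = 0.71, adjusted p = 0.0919 by permutation), neither of which passed. Cyp4v3 was at rank 41 and Cyp4a12b at rank 67 of 10240 genes for likeness to Cyp4a12a. Cyp4a10 was at rank 4089. Whether the r of 0.04 differs from the r of 0.953 between Cyp4a10 and Cyp4a14 was not tested.

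The Cyp4f genes had middling values with the PPARA-responsive pair. Cyp4f13 had r = 0.78 with Cyp4a14 (adjusted p = 0.0591 by permutation) and 0.70 with Cyp4a10 (adjusted p = 0.0919 by permutation). Cyp4f14 had r = 0.69 with Cyp4a14 and 0.67 with Cyp4a10. Without Con 1 and Exe 2 the 2 values of Cyp4f13 went to 0.56 and 0.32, so they rested in part on those mice. Within the Cyp4f branch, r was 0.66 for both Cyp4f13 and Cyp4f15 with Cyp4f14, and 0.34 between Cyp4f13 and Cyp4f15.

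**Figure D4:**
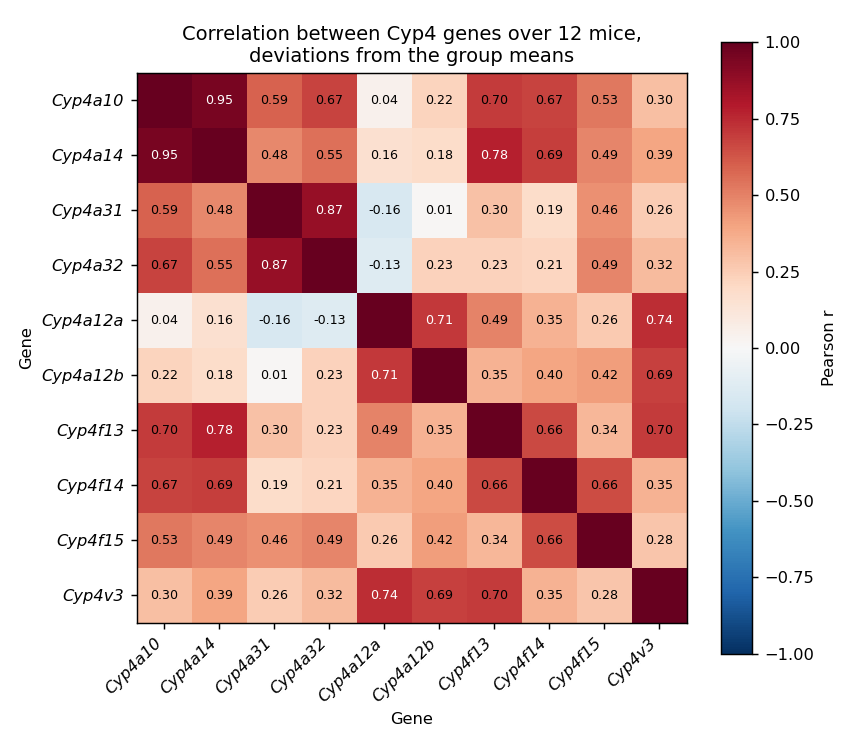
Pearson's r between each pair of the 10 Cyp4 genes over 12 mice, from deviations of log2(FPKM + 1) from the group means (colour scale from -1 in blue to 1 in red). The darkest cells off the diagonal are Cyp4a10 with Cyp4a14 (0.95) and Cyp4a31 with Cyp4a32 (0.87), and Cyp4a12a is close to 0 with Cyp4a10 (0.04).

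Outside the family, the genes most like Cyp4a10, Cyp4a14, Cyp4a12a and Cyp4f14 are given by the same r over the 12 mice, as a description with no p, since all values come from the same libraries. For Cyp4a10 the closest 5 were Zfp598 (r = 0.947), a ubiquitin ligase of stalled ribosomes, Ptprb (0.922), a receptor phosphatase of endothelium, Mbtps1 (0.916), the protease that releases SREBP factors, Pccb (0.915), a subunit of propionyl-CoA carboxylase, and Faah (0.904), the fatty acid amide hydrolase. For Cyp4a14 they were Zfp598 (0.947), Ptprb (0.934), Aldh2 (0.933), the mitochondrial aldehyde dehydrogenase, Timp3 (0.927), a metalloproteinase inhibitor, and Lpcat3 (0.921), which puts polyunsaturated chains into phospholipids. The 2 lists shared Zfp598 and Ptprb. For Cyp4a12a the closest was Mup3 (0.910), a major urinary protein gene of male liver, followed by Ccdc85b (0.867), Akr1c14 (0.836), a hydroxysteroid dehydrogenase, Emc9 (0.830) and Zfp982 (0.828). For Cyp4f14 the closest was Cers2 (0.967), the synthase of very-long-chain ceramides, followed by Tex264 (0.946), Suox (0.942), the sulfite oxidase, Tmem14c (0.923) and Prdx6 (0.919). The 5 genes nearest Cyp4a12a and the 5 nearest Cyp4f14 were not among those nearest Cyp4a10 or Cyp4a14. None of these genes passed the test between the groups, with adjusted p-values between 0.793 and 0.995 in limma.

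A list of 48 PPARA targets outside Cyp4 was followed next, of which 41 were tested. Between the groups, 19 were higher and 22 lower in Exe livers, 0 passed at adjusted p and 2 were lower at an unadjusted p under 0.05 (1.94% of all genes were), with a median log2 difference of -0.0037 against 0.016 over all genes tested. The lowest was Vnn1 at -0.44 (SE 0.13, adjusted p = 0.761), a pantetheinase, and the highest was Acot1 at 0.43 (SE 0.29, adjusted p = 0.900), a cytosolic acyl-CoA thioesterase. Ppara itself was at 30.5 ± 4.17 FPKM in Con and 29.4 ± 5.78 FPKM in Exe livers. Neither direction prevailed in the list.

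Within the groups, the same list varied with the selected pair. The median r of its 41 genes was 0.64 with Cyp4a10 and 0.67 with Cyp4a14, against 0.12 and 0.16 over all genes tested. An r of at least 0.7 with Cyp4a10 was found for 16 of the 41, and for 329 of the 10240 genes tested beside Cyp4a10. The highest was Acadvl, the first enzyme of mitochondrial oxidation of long chains, at 0.87, and the lowest was Cyp8b1, a sterol hydroxylase of bile acid synthesis, at -0.44. Ppara had an r of 0.37 with Cyp4a10, at rank 2615. The 10 members were then set against the mean log2 level of 3 lists (PPARA targets, acute-phase genes and male-biased genes), which gave 30 relations. Of these, 12 had an unadjusted permutation p under 0.05 and 2 passed after adjustment over the 30. Such counts were not computed over all genes tested, so whether the members exceed other genes in them is not known.

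The 2 relations that passed were Cyp4a10 with the PPARA targets (r = 0.826, permutation p = 0.001, adjusted p = 0.015, rho = 0.874) and Cyp4a14 with the PPARA targets (r = 0.823, permutation p = 0.00053, adjusted p = 0.015, rho = 0.881). For Cyp4a10, r was 0.933 in Con mice (exact permutation p = 0.00833) and 0.739 in Exe mice (exact permutation p = 0.0875), and 0.817 without Con 1 and Exe 3, the mice farthest from the median. For Cyp4a14, r was 0.923 in Con mice (exact permutation p = 0.00278) and 0.743 in Exe mice (exact permutation p = 0.0653), and 0.760 without Con 1 and Exe 3. Without Con 1, Con 5, Con 6 or Exe 5, 0 relations passed. Cyp4a31 (r = 0.723, adjusted p = 0.065 by permutation, and rho = 0.748, adjusted p = 0.0499995) and Cyp4a32 (r = 0.714, adjusted p = 0.0654 by permutation) had values near these, with Cyp4a31 past the threshold by rho and not by r, and Cyp4a12a had r = 0.233.

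**Figure D5:**
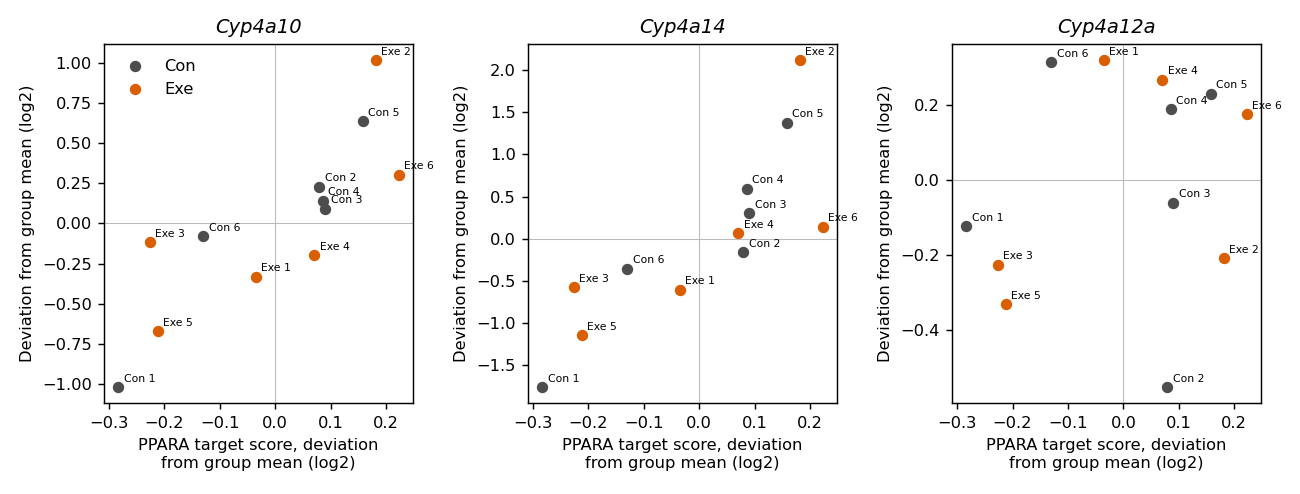
Deviation from the group mean of log2(FPKM + 1) of Cyp4a10, Cyp4a14 and Cyp4a12a (vertical axes) against the deviation of the mean log2 level of 41 PPARA targets outside Cyp4 (horizontal axes), for 6 Con mice in grey and 6 Exe mice in orange. The points of Cyp4a10 (r = 0.826) and Cyp4a14 (r = 0.823) run from Con 1 at the lower left to Exe 2 and Exe 6 on the right, and those of Cyp4a12a do not (r = 0.233).

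The acute-phase genes, which the liver raises in inflammation, had values of the opposite sign. All 10 members had a negative r with the mean log2 level of 23 such genes, from -0.24 for Cyp4a31 to -0.75 for Cyp4a14 (adjusted p = 0.0654 by permutation), and none passed the adjustment. The share of all genes tested with a negative r was not computed, so whether this sets the members apart is not known. The members were not independent, as Exe 5 was the lowest Exe mouse for every one. Without Con 4 and Exe 5, r ran from -0.22 for Cyp4f14 to -0.78 for Cyp4a14. Summed, the acute-phase genes were highest in Exe 5 (63369 FPKM) and next in Con 1 (60371 FPKM), and ran from 17343 to 44507 FPKM in the other mice. Those were also the mice lowest for Cyp4a10 and Cyp4a14 in their groups. The part of the acute phase in the levels of the Cyp4 genes was not tested. Between the groups, 16 of the 23 genes were lower and 7 higher in Exe livers and 0 passed at adjusted p. The lowest was Orm2 at -1.29 (SE 0.95, adjusted p = 0.914) and the highest Hamp, the iron hormone hepcidin, at 0.63 (SE 0.82, adjusted p = 0.947).

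The 20 male-biased genes tested, taken as a comparison for Cyp4a12a and Cyp4a12b, had no relation past adjustment with any member. Cyp4a12b had r = 0.52 and Cyp4a12a r = 0.39 with their mean. Of the 20, 18 had lower means in Exe livers, where 42.5% of all genes tested did. The 20 genes are read in the same mice and are not independent. An unadjusted p under 0.05 was found for 2 of them, against 1.94% of all genes lower at that p, and 0 passed at adjusted p. The lowest was Mup11 at -0.70 (SE 0.28, adjusted p = 0.793) and the highest Slco1a1, an organic anion carrier, at 0.14 (SE 0.16, adjusted p = 0.944). Their sum was 42202 FPKM in Exe 2 and between 70402 and 98773 FPKM in the other mice, so the mouse with the highest Cyp4a10 and Cyp4a14 had the lowest sum of this list.

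None of the enzymes that act beside and after the Cyp4 proteins passed the test between the groups. Of 4 electron donors, 0 had an unadjusted p under 0.05. Por, the reductase that feeds P450 enzymes, had the highest log2 difference at 0.43 (SE 0.23, adjusted p = 0.849), from 107 ± 18.4 to 154 ± 61.4 FPKM, and Cyb5r3 the lowest at -0.04. Of 9 alcohol and aldehyde dehydrogenases, 2 were higher in Exe livers at an unadjusted p under 0.05, against 4.27% of all genes higher at that p, and 0 passed at adjusted p. The highest was Adh1 at 0.24 (SE 0.13, adjusted p = 0.830) and the lowest Aldh3a2, the fatty aldehyde dehydrogenase, at -0.06 (SE 0.18, adjusted p = 0.976). Within groups Aldh3a2 had r = 0.73 with Cyp4a10 and 0.76 with Cyp4a14.

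The peroxisomal list had 15 genes tested, with 7 higher and 8 lower means in Exe livers and 0 past adjusted p. The lowest was Crot, the carnitine octanoyltransferase that exports shortened chains, at -0.51 (SE 0.16, adjusted p = 0.789), and the highest was Acot4, a thioesterase for dicarboxylic acids, at 0.28 (SE 0.19, adjusted p = 0.899). Ehhadh, the bifunctional enzyme needed for dicarboxylic acids, was at 87.2 ± 17.2 FPKM in Con and 92.7 ± 15.2 FPKM in Exe livers and had the highest r of the list with Cyp4a10, 0.83. Crot had an r of -0.19 with Cyp4a10.

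Of 20 transcription factors tested that are linked to control of Cyp4 genes, 7 were higher and 13 lower in Exe livers and 0 passed. The highest was Nr1i3, the xenobiotic receptor CAR, at 0.33 (SE 0.17, adjusted p = 0.833), which also had the highest r of these factors with Cyp4a10, 0.68. The lowest was Dbp, a clock output factor, at -0.47 (SE 0.32, adjusted p = 0.900).

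The remaining Cyp4 genes were minor. The 8 others in the files summed to between 13.63 and 20.23 FPKM per mouse, which was 1.12% to 2.41% of all Cyp4 genes, and 3 were tested. Cyp4f17 (log2 difference 0.10, adjusted p = 0.947), Cyp4b1 (0.09, adjusted p = 0.958) and Cyp4f16 (-0.12, adjusted p = 0.931) did not pass. Within groups Cyp4b1, at a mean of 6.83 FPKM, had r = 0.87 with Cyp4a10, and Cyp4f16, at 1.65 FPKM, had r = -0.82.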

How the data were processed

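Total RNA of liver was sequenced as paired reads of 150 bases. After quality filtering, the authors state HISAT and the GRCm39 genome for alignment. The submitters' processing notes name HISAT with Bowtie2 and GRCm39 with mm10, without roles, so the aligner and build behind the FPKM are not certain. The values they deposited are FPKM, written to 2 decimals. Their own differential analysis was not used. The tool that computed the FPKM, its annotation and its handling of shared reads are not given in the sources used here. FPKM are not counts, so log2(FPKM + 1) was fitted with limma 3.58.1 in R 4.3.3 (lmFit, eBayes with a trend, group as the only term). The filter kept the 10241 genes that reached 1 FPKM in 6 or more mice, and p-values were adjusted over them by Benjamini-Hochberg. The pseudocount of 1 understates changes of low genes. P-values measure the spread between these mice. All 10 members passed the filter.

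Correlations used deviations from group means, with 100000 permutations within groups (smallest p 1e-05) or all 720 orders within a group (smallest p 0.00139), in Python 3.11.15 with numpy 2.4.6 and pandas 2.3.3. Both methods were tested on simulated data. Coding sequences were aligned globally over their whole length.

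The members, gene lists and tests were chosen with earlier results of these data known. Named were the 10 members, Ppara, the 5 genes with the highest r with Cyp4a10, Cyp4a14, Cyp4a12a and Cyp4f14, and the lowest and highest log2 difference of each pathway list. Other named genes (Acadvl, Cyp8b1, Ehhadh and the relations of Aldh3a2, Crot, Nr1i3, Cyp4b1 and Cyp4f16 with Cyp4a10) were chosen after their values were seen. Replicate numbers were not used to pair the mice in the main fit. Same-numbered mice correlated at between -0.48 and 0.16, which cannot exclude a pairing. Alternatives were quantile normalization, a pseudocount of 0.1, no filter, a filter at 5 FPKM, robust moderation, a replicate block, Spearman's rho, the sum over all Cyp4 genes, and each mouse left out.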

Additional observations from a re-analysis of the deposited data

Results flagged for a closer look

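In 24 sets of 6 mice (the 10 members, their sum and the share of Cyp4a10 plus Cyp4a14, by group), a single mouse stood apart from its group in 2, by the ratio of its gap to the whole range. Chance alone gives such a value in about 1 in 20 sets when values are normally spread. The ratio was taken on FPKM and percent shares, and not on the log2 values used elsewhere, so skewed levels raise it more easily. Cyp4a14 in Exe 2 was at 289.52 FPKM, while the other Exe mice lay between 29.31 and 73.03 FPKM (ratio 0.832, critical value 0.625). The share of Cyp4a10 plus Cyp4a14 in the family sum was 46.4% in the same mouse, while the other Exe mice lay between 17.9% and 26.7% (ratio 0.691). The 2 values come from the same mouse and the same gene, so they are not independent.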

How the results depend on the processing

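Of 308 values recomputed under other settings, 281 had the direction and the call of the reported value, or moved by less than the spread between mice or 1.5-fold. In limma, 0 genes were past the adjusted p of 0.05 together with a log2 difference over 1 under every setting run, and 1 gene had an adjusted p under 0.05 with no filter. The number of genes at an unadjusted p under 0.05 was 636. It was 418 to 910 with a mouse left out (lowest without Exe 2, highest without Exe 5) and 399 without Con 1 and Exe 2, which were left out together after the data were seen. Under the replicate block it was 567, with 0 past both thresholds, and 1 of 6 same-numbered pairs had a correlation over 0.1. The log2 difference of Cyp4a32 was -0.08, -0.18 without Con 1, and turned to 0.0055 without Con 2 and 0.0040 without Exe 5. That of Cyp4f15 was -0.01, -0.061 without Exe 2, and turned to 0.016 without Con 2, 0.0049 without Con 4, 0.010 without Exe 3 and 0.10 without Exe 5. The pairs of members past the adjusted threshold numbered 2, 1 with Spearman's rho, and 1 to 5 with a mouse left out (1 without Con 2, Exe 5 or Exe 6, 4 without Con 6 or Exe 1, 5 without Exe 2). The r of Cyp4a10 with Cyp4a14 was 0.923 to 0.970 with a mouse left out, and 0.820 (permutation, adjusted p = 0.0703) without Con 1 and Exe 2. The relations of members with lists past the threshold numbered 2, 3 with Spearman's rho, quantile normalization or a pseudocount of 0.1, and 0 to 4 with a mouse left out (0 without Con 1, Con 5, Con 6 or Exe 5, 4 without Con 4, Exe 2 or Exe 3). The mean share of Cyp4a10 plus Cyp4a14 was 10.7% to 12.7% in Con and 21.9% to 27.6% in Exe mice with a mouse left out. With 6 mice a group and wide spreads, the 95% intervals of the 8 other members left room for log2 differences of up to 0.56. The causes of these shifts were not tested.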

Other observations

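Markers of other liver cell types moved with the Cyp4a pair to different degrees within the groups, given here as values over the 12 mice with no test. The 10 Kupffer cell markers, genes of the macrophages of the liver, all had a negative r with Cyp4a10, from -0.61 for C1qc to -0.39 for Marco, with a median of -0.55. Their median r with Cyp4a14 was -0.66. All 10 had lower means in Exe livers, with log2 differences from -0.34 for Marco to -0.11 for C1qb, and 0 passed at adjusted p. The 9 markers of sinusoidal endothelium had a median r of 0.54 with Cyp4a10 and of 0.65 with Cyp4a14, highest for Kdr, the VEGF receptor, at 0.71 and 0.79. Of the hepatocyte zones, the 11 pericentral markers had a median r of 0.51 with Cyp4a10 and the 10 periportal markers 0.29. Both lists were wide. With Cyp4a10 the pericentral markers ran from -0.31 for Rhbg to 0.80 for Cyp2e1, the alcohol-inducible P450 of that zone. The periportal markers ran from -0.43 for Arg1 to 0.78 for Sdhd. With Cyp4a14 the highest values of the 2 lists were 0.85 for Cyp2e1 and 0.87 for Sdhd. Over all genes tested the median r was 0.12 with Cyp4a10 and 0.16 with Cyp4a14. The part of cell makeup in these values was not tested.

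Exe 5, the lowest Exe mouse for all 10 members, held the highest sums of several marker lists. Its pancreatic acinar markers were at 22.6 FPKM, against 0.60 to 2.93 FPKM in Con mice and 0.80 to 5.23 FPKM in the other Exe mice. Its red blood cell (1290 FPKM), cholangiocyte (78.8), B and plasma cell (8.61) and T cell (4.77) markers were the highest of all mice too. Its sums of pericentral (5395 FPKM) and periportal (4996 FPKM) markers were the lowest. Its hepatocyte markers summed to 89481 FPKM, within the range of the other Exe mice.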
